A study of Mus musculus with 10 samples.

Results

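The JNK module was examined in mouse lung squamous cell carcinoma (LSCC) by taking 10 genes: the MAP kinase kinases Map2k7 (MKK7) and Map2k4 (MKK4), the kinases Mapk8 (JNK1), Mapk9 (JNK2) and Mapk10 (JNK3), and the scaffold genes Mapk8ip1 (JIP1), Mapk8ip2 (JIP2), Mapk8ip3 (JIP3), Spag9 (JIP4) and Sh3rf1 (POSH). Every probe annotated to these genes was taken, which gave 19 of the 41174 probes on the array and 10 of the 19096 genes with a probe. The genes were listed by name, and the list was chosen with earlier results of these data known. Each group held 5 arrays: WT lungs came from Lkb1f/f mice and LSCCs (labelled SCC) from CCSPiCreLkb1f/f mice, all of strain B6.129, aged 13 months and given no special treatment. Both genotypes carry the floxed Lkb1 alleles, and the tumour mice also carry an improved Cre recombinase driven by the Club Cell Secretory Protein promoter, which acts in airway epithelium. The WT samples were whole lung and the SCC samples were tumour tissue, so both are mixtures, and in such bulk RNA fewer cells of a type cannot be told apart from less RNA per cell.

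JNKs are stress-activated protein kinases. MKK4 and MKK7 activate them by phosphorylating a threonine and a tyrosine in the activation loop, and MKK7 acts on JNKs alone whereas MKK4 also acts on p38 kinases. JNK1 and JNK2 are made in nearly all tissues, while JNK3 is best known from brain, heart and testis. JIP and POSH scaffolds hold the kinases of the cascade together, and several JIPs tie it to kinesin motors. Activated JNK phosphorylates c-Jun and ATF2, which bind AP-1 and cAMP response (CRE) elements in DNA. The study asked about JNK activity in the tumours and about the level of MKK7. It reported MKK7 lower in such tumours both as RNA, by qRT-PCR, and as protein. The arrays bear on RNA only, not on protein or phosphorylation.

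Each array carried 43379 non-control spots. Values are log2 of the quantile-normalized intensity, and differences are SCC minus WT. On 9 arrays 71.0% to 74.3% of probes were well above background, and on SCC replicate 5 90.2% were. The tumours carried squamous markers (6 of 6 tested genes higher, array means of 3.93 to 4.51 in WT and 11.68 to 15.20 in SCC), with SCC replicate 2 lowest at 11.68. Of these genes Pkp1, Krt6a and Dsg3 were well above background on no lung and entered the test through SCC alone, so the WT means hold values below background. Endothelial markers were lower in 6 of 6 (13.49 to 13.69 in WT and 10.92 to 12.12 in SCC, replicate 2 again nearest to WT). Of the 3 slides, the first held WT replicates 1 to 4 only and the last SCC replicates 4 and 5 only. The remaining arrays, WT replicate 5 with SCC replicates 1 to 3, shared a slide, and a value given with slide as a block is the contrast among those 4 arrays, a single lung against 3 tumours. Lkb1 (Stk11) itself is not analysed here, and the genotype labels were not checked against it. The labels do not say that every sample came from its own animal, so the p-values measure the spread between these samples.

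Of the 19 probes, 18 were bright enough to test (well above background on at least 4 of the 5 arrays of a group), and 10 of these passed the limma fit over all probes at an adjusted p below 0.05, with 5 higher and 5 lower in SCC. In the same fit 49% of all 30374 tested probes passed (22.4% higher and 26.6% lower), against 55.6% of the member probes. At 2-fold or more, 2 of the 18 passed (Mapk10 probe 1 and Sh3rf1 probe 2), where 22.9% of all probes did (9.92% higher and 13% lower). Tumours and lungs did not overlap on 3 of the 18 probes (16.7%), those of Map2k4, Mapk8ip3 and Spag9 probe 1, and for 37.4% of all tested probes. The median difference was -0.13 for the member probes and -0.09 for all probes, and the median size of the difference was 0.49 and 0.50. Counted by the brightest probe of each gene, 5 of 10 members passed (Map2k4 and Mapk8 higher, and Mapk10, Mapk8ip3 and Spag9 lower), where 53.9% of 15587 genes did, and 1 (Mapk10) did so at 2-fold or more, where 24.9% of genes did. Mapk10 entered the test only through the WT arrays, where it is higher, and of the other 9 genes 4 passed and none at 2-fold. The module as a whole therefore had a share of passing probes near the background, and its members went in both directions.

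**Figure D1:**
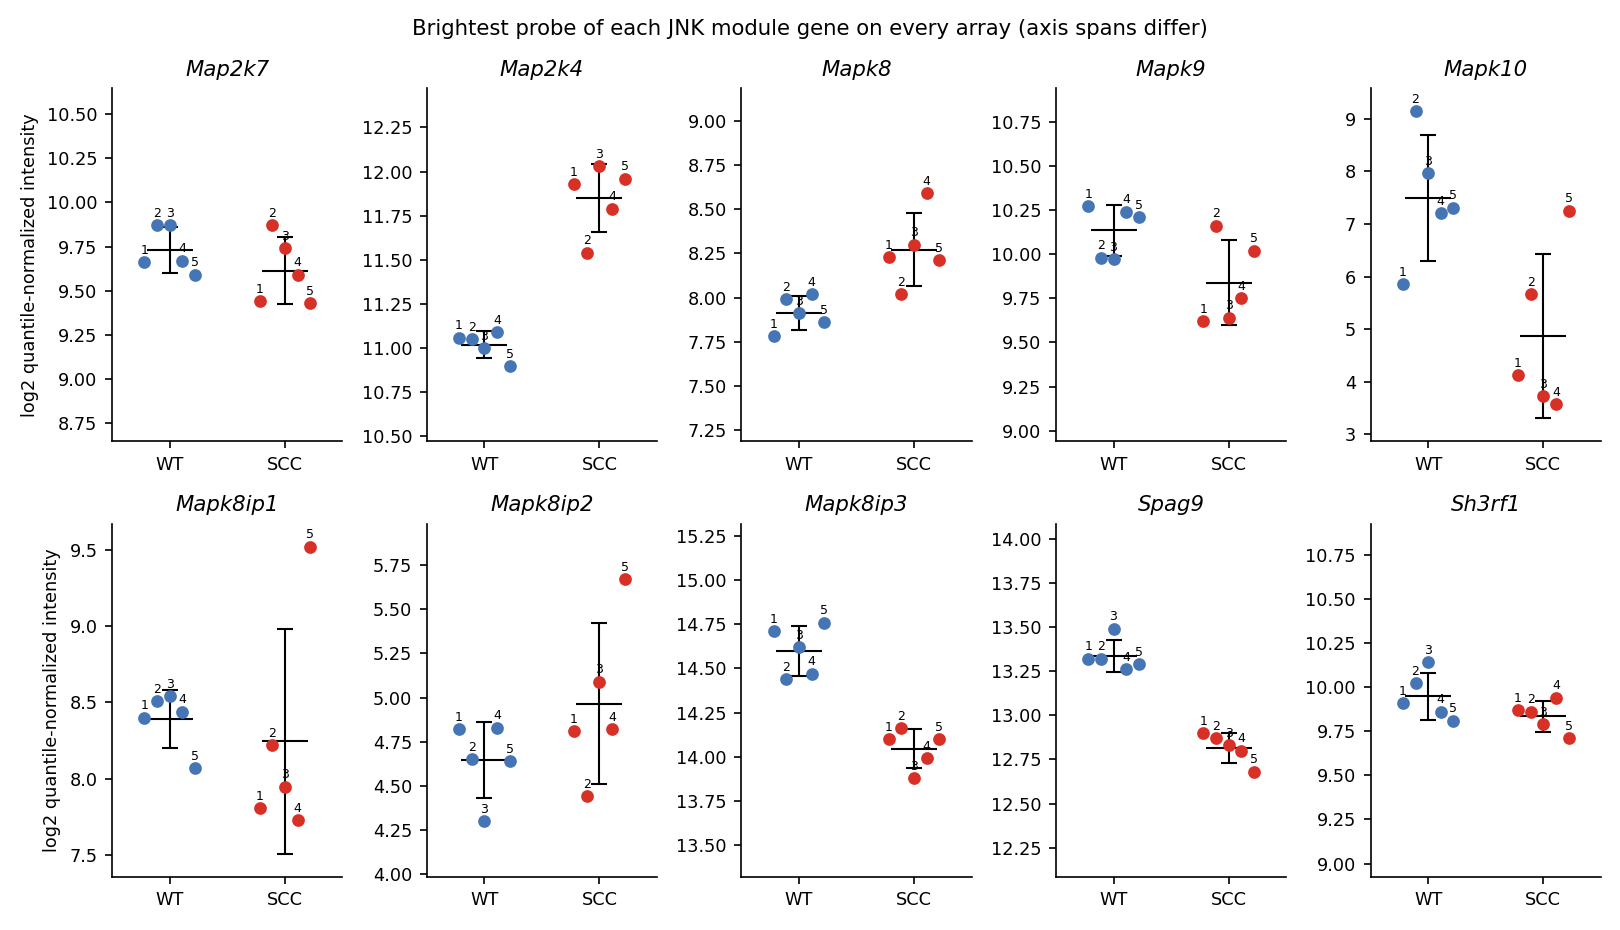
Log2 quantile-normalized intensity (y axis, spans differ between panels) of the brightest probe of each of the 10 genes in WT (blue) and SCC (red); each point is an array with its replicate number, and the bar is the mean with SD (n = 5). Map2k4 is higher on every SCC array, Mapk8ip3 and Spag9 are lower on every SCC array, and Map2k7 overlaps between the groups.

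The activating kinases moved apart. Map2k7, which encodes MKK7 and whose RNA the study reported as lower by qRT-PCR, did not pass. Its brighter probe (A_52_P612813) read 9.66, 9.87, 9.87, 9.67 and 9.59 on WT replicates 1 to 5, and 9.44, 9.87, 9.74, 9.59 and 9.43 on SCC replicates 1 to 5. The groups overlapped, and SCC replicate 2 was level with the highest WT arrays. The difference was -0.12 (SE 0.11, 95% confidence interval -0.37 to 0.13, limma adjusted p = 0.402, exact permutation p = 0.294), an interval that leaves room for a fall of up to 0.37 log2 units and for a small rise. The difference was -0.18 without SCC replicate 2 (limma adjusted p = 0.136) and -0.23 with array quality weights (adjusted p = 0.0526). Those weights counted SCC replicates 2 and 5 least (0.13 and 0.14) and WT replicates 2 and 3, the highest lungs here, most (2.83 and 2.68). With slide as a block the difference was 0.09, a contrast that rests on WT replicate 5, the lowest lung for this probe.

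A dimmer Map2k7 probe (A_52_P202350), annotated to another RefSeq transcript, was well above background on 5 WT and 3 SCC arrays. It read 4.99, 4.55, 5.31, 4.85 and 4.82 in WT and 4.31, 5.00, 4.81, 4.35 and 3.81 in SCC. Here 4 of 5 SCC arrays lay below the WT mean and the groups overlapped, with a difference of -0.44 (SE 0.23, 95% confidence interval -0.96 to 0.07, limma adjusted p = 0.132). It passed without SCC replicate 2 (-0.58, adjusted p = 0.0418) and was -0.28 without SCC replicate 5 (adjusted p = 0.238). The value was -0.11 with slide as a block (adjusted p = 0.877), -0.042 with normexp background correction (adjusted p = 0.641) and 0.04 with scaling to the 75th percentile (adjusted p = 0.937).

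Map2k4, which encodes MKK4, rose. Its single probe (A_51_P471440) read 11.06, 11.05, 11.00, 11.09 and 10.90 in WT and 11.93, 11.54, 12.03, 11.79 and 11.96 in SCC. All 5 tumours were above all 5 lungs, and SCC replicate 2 was the lowest tumour. The rise was 0.83 log2 units (SE 0.11, limma adjusted p = 0.000187, 1.78-fold), and it was 0.93 with slide as a block (adjusted p = 0.0279), a contrast that rests on WT replicate 5, the lowest lung. On each array the Map2k4 probe exceeded the Map2k7 probe by 1.29 ± 0.13 in WT and 2.24 ± 0.35 in SCC (SD, n = 5). This log2 ratio of the same pair of probes shifted by 0.95 towards Map2k4 (exact permutation p = 0.00794, the smallest possible, and 0.0397 after adjustment over the 15 pairs compared). Leaving out any one WT replicate gave 0.91 to 0.98 with an exact permutation p of 0.0159 each time, and lost this call after adjustment (0.0529 to 0.0794). Fewer arrays leave fewer splits and a coarser exact p, so a call lost in this way need not mean a smaller change.

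Mapk8, which encodes JNK1, has 3 probes that did not move alike. Probe 1 (A_52_P274352) read 7.78, 7.99, 7.91, 8.02 and 7.86 in WT and 8.23, 8.02, 8.30, 8.59 and 8.21 in SCC. All tumours were above the WT mean, but SCC replicate 2 was level with the highest lung, and the rise was 0.36 (SE 0.11, limma adjusted p = 0.0250). It no longer passed with slide as a block (0.32, adjusted p = 0.336) or without WT replicate 1, 3 or 5 or SCC replicate 3 (adjusted p from 0.0509 to 0.0607).

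Mapk8 probe 2 (A_52_P558382) read 7.43, 7.18, 7.23, 6.93 and 6.92 in WT and 6.19, 7.07, 6.52, 6.63 and 4.14 in SCC. Every tumour lay below the WT mean, SCC replicate 5 far below the rest, and SCC replicate 2 among the lungs. The difference was -1.03 (SE 0.48, limma adjusted p = 0.0992), and without SCC replicate 5 it was -0.53 and passed (adjusted p = 0.0343). It passed too at -1.27 without SCC replicate 2 (adjusted p = 0.0461) and at -0.83 with array quality weights (adjusted p = 0.00409). It also passed at -0.57 with scaling to the 75th percentile (adjusted p = 0.0218) and at -0.44 with normexp (adjusted p = 0.0273), and was -0.32 with slide as a block (adjusted p = 0.827). Probes 1 and 2 changed unequally, by 1.39 log2 units (exact permutation p = 0.0159, adjusted p = 0.0446). That gap was 0.91 without SCC replicate 5 and 0.71 with normexp. Its call was lost without any one WT replicate or SCC replicate 1, 3 or 4, at sizes of 1.28 to 1.48 (adjusted p from 0.0529 to 0.0794). The dimmest probe, spotted 10 times (A_51_P357182), read 3.40 to 4.34 in WT and 2.33 to 5.04 in SCC, with a difference of 0.03 (95% confidence interval -1.01 to 1.07, limma adjusted p = 0.963). The direction for JNK1 RNA thus depends on the probe.

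Mapk9, which encodes JNK2, was lower with each of its 3 probes, of which 2 passed. Its brightest probe (A_51_P190541) read 10.27, 9.98, 9.97, 10.24 and 10.21 in WT and 9.62, 10.16, 9.64, 9.75 and 10.02 in SCC, and differed by -0.29 (SE 0.13, unadjusted 95% confidence interval -0.59 to -0.00034, limma adjusted p = 0.0890). Probe 2 (A_52_P311566) read 9.12, 8.98, 8.92, 9.0 and 8.83 in WT and 8.18, 9.08, 8.29, 8.18 and 7.80 in SCC. Probe 3 (A_52_P27244), annotated to another transcript, read 8.47, 8.42, 8.31, 8.34 and 8.21 in WT and 7.77, 8.40, 7.72, 7.77 and 7.83 in SCC. On all 3 probes SCC replicate 2 sat within the lungs, and on probes 2 and 3 the other 4 tumours lay below every lung.

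Probe 2 of Mapk9 fell by 0.67 (SE 0.21, limma adjusted p = 0.0225) and probe 3 fell by 0.45 (SE 0.14, adjusted p = 0.0209). No pair of Mapk9 probes differed in its change beyond the spread (exact permutation p from 0.0635 to 0.190, adjusted over pairs 0.0952 to 0.204). Without SCC replicate 2 the brightest probe passed too (-0.37, limma adjusted p = 0.0198), and probe 2 then differed in its change from probe 1 (by 0.49) and from probe 3 (by 0.28 in size, exact permutation adjusted p = 0.0265 each). Probe 2 was lost without WT replicate 1 (adjusted p = 0.0519) or SCC replicate 1 (0.0505), and probe 3 without SCC replicate 1 (0.0503) or SCC replicate 3 (0.0507). With slide as a block none of the 3 passed (-0.40, -0.32 and -0.25, adjusted p = 0.343, 0.578 and 0.573), and with scaling to the 75th percentile probe 3 did not (-0.36, adjusted p = 0.108). The log2 ratio of Mapk8 probe 1 to Mapk9 probe 1 shifted by 0.65 towards Mapk8 (exact permutation p = 0.0238, adjusted p = 0.0446, and 0.0510 with the deposited matrix values). This call too was lost without any one WT replicate or SCC replicate 1, 3 or 4, at sizes of 0.55 to 0.71.

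Mapk10, which encodes JNK3, had the lowest difference of the 10 genes. Probe 1 (A_51_P433989) read 5.85, 9.14, 7.97, 7.20 and 7.31 in WT and 4.13, 5.66, 3.73, 3.58 and 7.25 in SCC. WT replicate 2 was highest and WT replicate 1 was near SCC replicate 2, while SCC replicate 5 lay among the lungs, so the groups overlapped. The probe was well above background on 5 WT arrays and on 2 SCC arrays, so it was tested only because it is measured in WT. It fell by 2.63 (SE 0.80, limma adjusted p = 0.0214), but the spread within each group exceeded 1 log2 unit (SD 1.20 in WT and 1.56 in SCC, n = 5). On 3 of the 5 SCC arrays the probe was not well above background, so the size of the fall is uncertain, and normexp background correction gave -1.07 (adjusted p = 0.0313).

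The call on Mapk10 was lost without WT replicate 2 (-2.21, limma adjusted p = 0.0502), SCC replicate 3 (-2.34, adjusted p = 0.0520) or SCC replicate 4 (-2.30, adjusted p = 0.0511) and with slide as a block (-2.81, adjusted p = 0.272). Probe 2 (A_52_P21400) was not tested, being well above background on 1 array of each group, and read 2.28 to 5.40 in WT and 2.44 to 2.85 in SCC. The log2 ratio of Mapk8 probe 1 to Mapk10 probe 1 shifted by 2.99 towards Mapk8 and by 1.35 with normexp, a size that the Mapk10 values below background leave uncertain. The change of Mapk9 probe 1 against Mapk10 probe 1, with the same limit, did not pass (2.33, exact permutation p = 0.0476, adjusted p = 0.0794).

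Markers of heart muscle moved with Mapk10. Of 6 cardiac genes, 5 were lower in SCC, among them Myh6, the alpha cardiac myosin heavy chain (-4.68, SE 0.86, limma adjusted p = 0.00158), Tnnt2, cardiac troponin T (-3.37, adjusted p = 0.00328), and Ryr2, the calcium release channel of the heart (-2.28, adjusted p = 0.00990), and Nppa did not pass (-2.07, adjusted p = 0.124). None of the 6 passed with slide as a block (adjusted p from 0.117 to 0.858). Their mean was 9.85, 13.33, 11.61, 11.21 and 11.35 on WT replicates 1 to 5 and 8.74, 9.78, 8.05, 8.67 and 8.88 on SCC replicates 1 to 5. The 5 lungs had the same order in Mapk10 and in these markers, WT replicate 2 highest and WT replicate 1 lowest. SCC replicate 5 stood apart, with Mapk10 at 7.25 and cardiac markers at 8.88. All 6 cardiac markers were well above background on all 10 arrays.

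**Figure D2:**
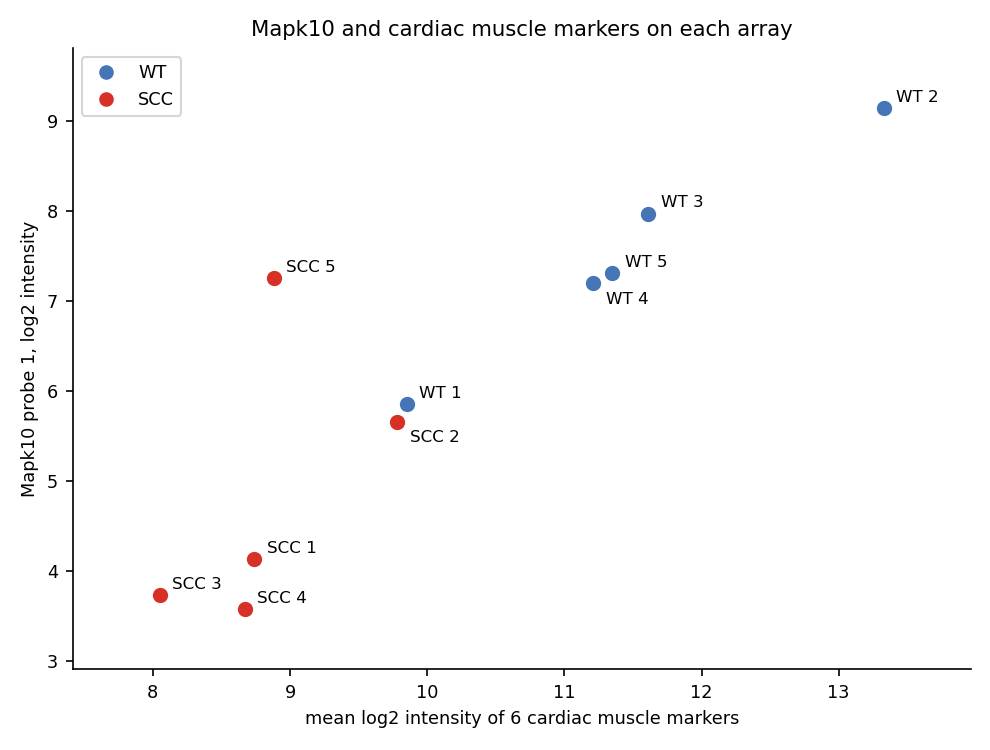
Mapk10 probe 1 (y axis, log2 intensity) against the mean log2 intensity of 6 cardiac muscle markers (x axis) on each of the 10 arrays, WT in blue and SCC in red. WT replicate 2 is highest on both axes (9.14 and 13.33), and SCC replicate 5 (7.25 and 8.88) lies above the other tumours in Mapk10 only.

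The 3 genes whose values followed Mapk10 most closely over the 10 arrays, among 14109 genes well above background on every array, were Hspb7, a small heat shock protein of heart muscle (Pearson r = 0.989), Ryr2 (0.972) and Tesmin (0.970). Of 8 markers of neurons and neuroendocrine cells, 5 were tested and 1 was lower, Elavl4, a neuronal RNA-binding protein (-2.19, limma adjusted p = 0.0132, and 0.390 with slide as a block). The others did not pass and went both ways, with Calca (1.37, limma adjusted p = 0.0672) and Chga (0.07) above 0 and Syp (-0.98) and Ncam1 (-0.60) below. Calca passed as higher without SCC replicate 3 or 5. The neuronal genes Snap25, Elavl3 and Nefl passed the background on no lung and on 1 tumour each. The mean of the 5 tested genes ranged from 6.52 to 7.16 in WT and from 5.63 to 7.39 in SCC. The part of either cell type in the fall of Mapk10 was not tested.

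For comparison, the genes closest to Map2k7 over the same arrays were the non-coding RNA Norad (r = 0.936), the DNA repair gene Xrcc4 (0.918) and Rp2 (0.902). Those closest to Mapk8 probe 1 were Rarg, a retinoic acid receptor (0.973), Pygo2, a cofactor in Wnt signalling (0.965), and Fdft1, which encodes squalene synthase (0.963). These genes were picked as the highest of many and the arrays fall into 2 groups, so the values describe likeness only.

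Promoter windows from RefSeq (GRCm38.p6, 250 bases before to 50 after a start site, read on the strand of the gene) were found for 8 of the 10 genes, with 13 windows in all, and not for Mapk8ip1 and Sh3rf1. The elements bound by c-Jun and ATF2, which JNK phosphorylates, were searched on both strands as TGANTCA (AP-1), TGACGTCA (full CRE) and TGACGT (CRE core, contained in the full CRE). AP-1 letters occurred in 7.81%, the full CRE in 1.79% and the core in 7.51% of all 32851 windows of this length. Among the member windows, 1 held AP-1 letters and 2 the CRE core, of which 1 was the full CRE. Those 3 windows, of Map2k7 (MKK7), Mapk8 (JNK1) and Mapk10 (JNK3), are shown because they hold a match, which is in capitals. Each of these genes has another window that held no match and is not shown. For Map2k7 that is the window of the first start site (GC content 58.0%).
Map2k7, second start site, chr8:4239855-4240154, plus strand, AP-1 letters: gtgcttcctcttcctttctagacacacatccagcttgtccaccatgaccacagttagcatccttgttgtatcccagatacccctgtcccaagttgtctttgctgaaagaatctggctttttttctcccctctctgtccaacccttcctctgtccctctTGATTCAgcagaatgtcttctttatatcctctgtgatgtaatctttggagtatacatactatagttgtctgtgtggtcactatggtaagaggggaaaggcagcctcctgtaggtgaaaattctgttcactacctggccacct
Mapk8, first start site, chr14:33447109-33447408, minus strand, CRE core: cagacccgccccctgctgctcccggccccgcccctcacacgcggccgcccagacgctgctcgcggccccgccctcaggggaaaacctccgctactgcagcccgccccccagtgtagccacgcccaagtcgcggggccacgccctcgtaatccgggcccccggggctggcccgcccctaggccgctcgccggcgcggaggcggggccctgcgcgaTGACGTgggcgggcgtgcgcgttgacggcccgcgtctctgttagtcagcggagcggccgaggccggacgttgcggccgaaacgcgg
Mapk10, first start site, chr5:103211285-103211584, minus strand, full CRE: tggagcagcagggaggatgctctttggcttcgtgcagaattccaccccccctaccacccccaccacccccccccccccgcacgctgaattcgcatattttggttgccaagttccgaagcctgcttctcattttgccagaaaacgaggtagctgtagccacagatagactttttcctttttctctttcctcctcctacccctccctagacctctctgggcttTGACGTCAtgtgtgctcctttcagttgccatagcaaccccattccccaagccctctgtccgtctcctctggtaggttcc
The match begins 92 bases before the start in the Map2k7 window, 36 in the Mapk8 window and 29 in the Mapk10 window. GC content was 45.7%, 77.7% and 55.3%, against a median of 52.7% over all windows. The 3 genes holding a match differed by -0.12, 0.36 and -2.63 between SCC and WT by their brightest probes. These are letter matches in a reference window, not measured binding.

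The scaffold genes split by probe as well as by gene. Mapk8ip3, whose product JIP3 carries JNK and its kinases along microtubules, fell. It read 14.71, 14.44, 14.62, 14.47 and 14.76 in WT and 14.10, 14.16, 13.88, 13.99 and 14.10 in SCC (A_51_P264388). All tumours lay below all lungs, and the fall was by 0.56 log2 units (SE 0.10, limma adjusted p = 0.00121). With slide as a block the difference was -0.71 (adjusted p = 0.0447), a contrast that rests on WT replicate 5, the highest lung for this probe.

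Spag9, which encodes JIP4, a scaffold for JNK and p38 kinases, gave opposite answers with its 3 probes. Probe 1 (A_52_P124264) read 13.32, 13.32, 13.49, 13.26 and 13.29 in WT and 12.90, 12.87, 12.83, 12.80 and 12.68 in SCC, with no overlap. Probe 2 (A_52_P592120) read 8.13, 8.09, 8.03, 7.99 and 7.89 in WT and 8.78, 8.06, 9.34, 9.11 and 9.09 in SCC. Probe 3 (A_51_P359259) read 8.09, 8.08, 7.93, 8.15 and 7.86 in WT and 8.69, 8.03, 9.26, 9.05 and 8.96 in SCC. On probes 2 and 3 SCC replicate 2 read like a lung and the other 4 tumours lay above every lung, while on probe 1 SCC replicate 2 was lowered with the rest.

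Spag9 probe 1 fell by 0.52 (SE 0.08, limma adjusted p = 0.000653), whereas probe 2 rose by 0.85 (SE 0.22, adjusted p = 0.00903) and probe 3 rose by 0.77 (SE 0.21, adjusted p = 0.0121). The change of probe 1 relative to probe 2 was -1.37 and relative to probe 3 was -1.29 (exact permutation p = 0.00794 each, adjusted p = 0.0397). Without any one WT replicate these changes were -1.332 to -1.399 and -1.233 to -1.345, with adjusted p from 0.0529 to 0.0794. Probes 2 and 3 did not differ in their change beyond the spread (0.07, exact permutation p = 0.135, adjusted p = 0.156). All 3 probes are annotated to the same RefSeq transcript and were well above background on every array, but which part of it each probe reads was not analysed here, nor for the probes of Sh3rf1 and Mapk8. With slide as a block the differences kept their direction and none passed (-0.42, 0.83 and 0.80, limma adjusted p = 0.117, 0.207 and 0.211).

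Sh3rf1, whose product POSH binds active Rac and assembles the JNK cascade, showed a like split. Probe 1 (A_52_P299846) read 9.91, 10.02, 10.14, 9.86 and 9.81 in WT and 9.87, 9.86, 9.79, 9.94 and 9.71 in SCC. The groups overlapped, with a difference of -0.11 (SE 0.09, 95% confidence interval -0.32 to 0.09, limma adjusted p = 0.325). Probe 2 (A_51_P394754) read 7.84, 7.72, 7.71, 7.78 and 7.65 in WT and 9.04, 7.71, 9.07, 9.48 and 9.07 in SCC. Apart from SCC replicate 2, which lay within the lungs, the tumours were above every lung, and the rise was 1.13 (SE 0.28, limma adjusted p = 0.00810). Relative to probe 2, probe 1 changed by -1.25 (exact permutation p = 0.0238, adjusted p = 0.0446, and 0.0510 with the deposited matrix values). The call was lost without any one WT replicate or SCC replicate 1, 3 or 4, where the change was -1.12 to -1.28. With slide as a block the 2 probes gave 0.03 (limma adjusted p = 0.939) and 0.96 (adjusted p = 0.227).

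**Figure D3:**
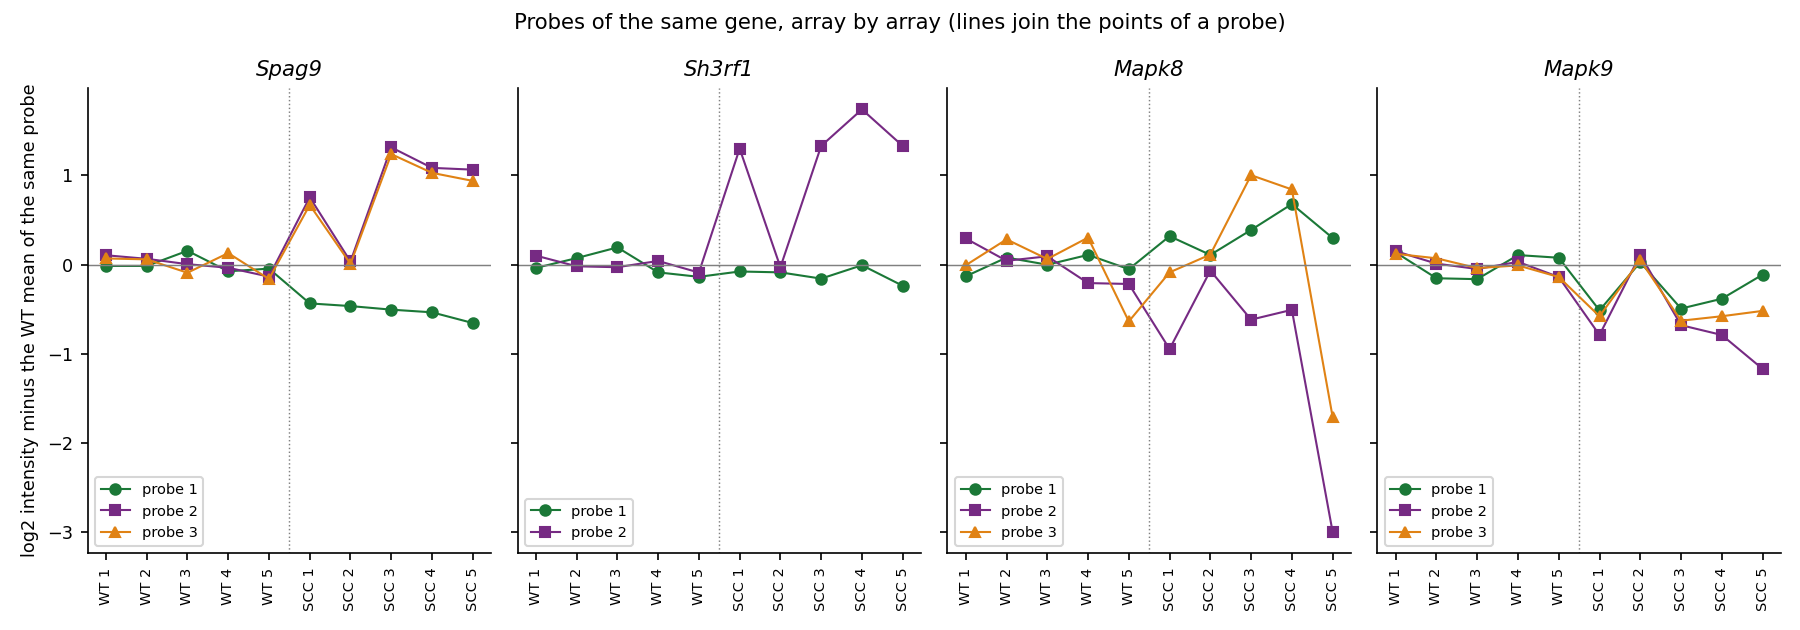
Log2 intensity of each probe of Spag9, Sh3rf1, Mapk8 and Mapk9 minus the WT mean of that probe (y axis) on the 10 arrays (x axis; the dotted line parts WT from SCC). Spag9 probes 2 and 3 rise together on SCC replicates 1, 3, 4 and 5 while probe 1 falls, and SCC replicate 2 stays near 0 for those probes, for Sh3rf1 probe 2 and for the Mapk9 probes.

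Mapk8ip1 and Mapk8ip2, which encode the related scaffolds JIP1 and JIP2 known from neurons and pancreatic islets, did not pass. Mapk8ip1 (A_51_P252947) read 8.40, 8.51, 8.54, 8.44 and 8.07 in WT and 7.81, 8.22, 7.95, 7.73 and 9.52 in SCC. In 4 tumours it was below the WT mean, and in SCC replicate 5 it was above every lung. The difference was -0.14 (SE 0.31, 95% confidence interval -0.84 to 0.56, limma adjusted p = 0.723), and without SCC replicate 5 it was -0.46 and passed (adjusted p = 0.0179). Mapk8ip2 (A_52_P370392) read 4.82, 4.65, 4.30, 4.83 and 4.64 in WT and 4.81, 4.44, 5.09, 4.82 and 5.67 in SCC. The groups overlapped, with SCC replicate 5 highest, and the difference was 0.32 (SE 0.21, 95% confidence interval -0.16 to 0.80, limma adjusted p = 0.243). It was 0.14 without SCC replicate 5, 0.036 with normexp and 0.64 with scaling to the 75th percentile, and passed in none of these.

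**Figure D4:**
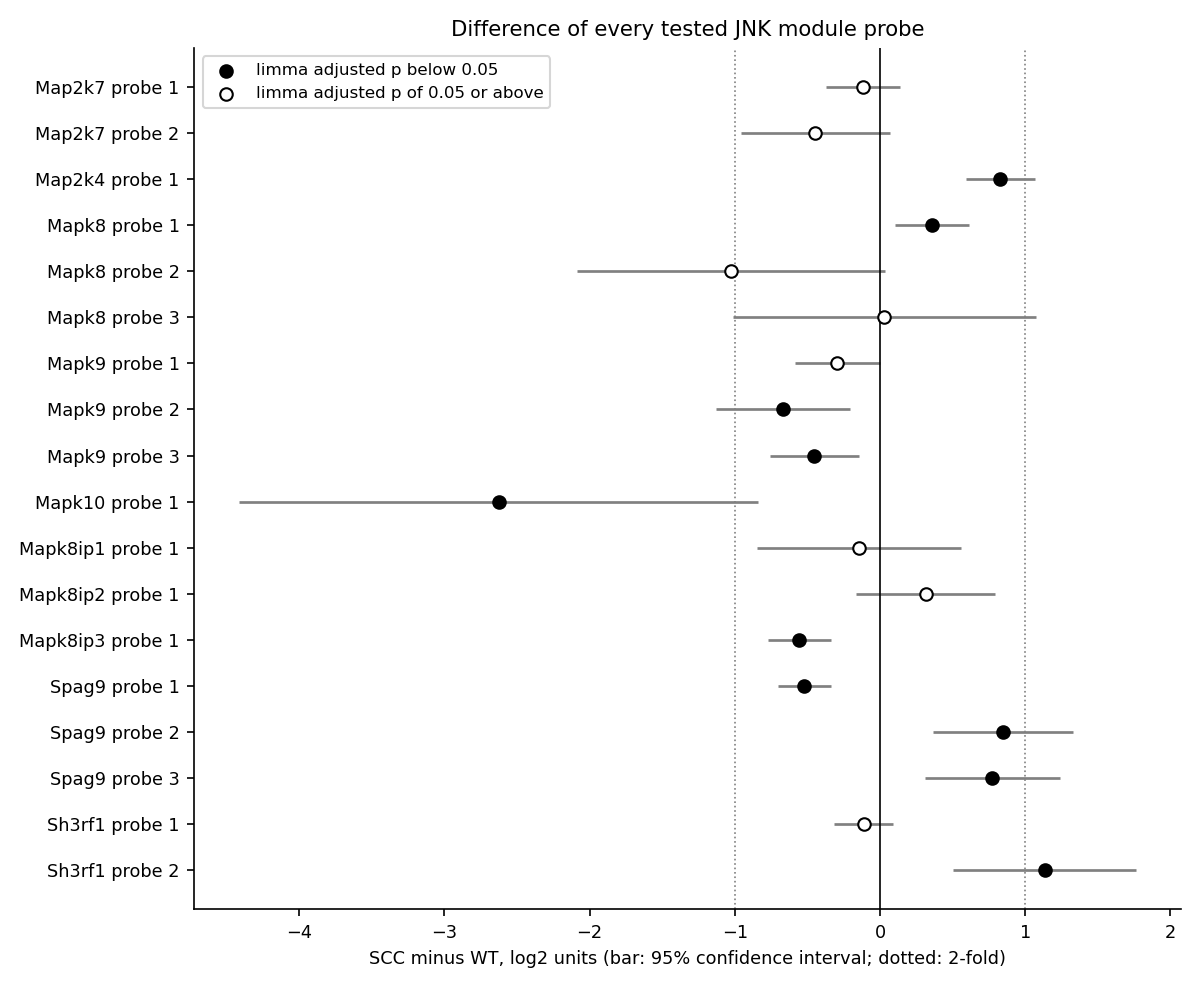
Difference between SCC and WT (x axis, log2 units; bars are 95% confidence intervals of the limma fit, n = 5 each) for the 18 tested probes (y axis); filled points have an adjusted p below 0.05 and dotted lines mark 2-fold. Spag9 probe 1 (-0.52) lies left of 0 and probes 2 and 3 (0.85 and 0.77) lie right of it, and Mapk10 has the widest interval (-4.41 to -0.84).

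SCC replicates 2 and 5 stood apart from the other tumours in several members. Without both, 7 of the 10 genes passed by their brightest probe in place of 5, the additions being Mapk9 (-0.46, limma adjusted p = 0.00345) and Mapk8ip1 (-0.56, adjusted p = 0.00327), while Map2k7 still did not (-0.15, adjusted p = 0.242). The number of probes passing over the whole array rose from 14878 to 19731 in that fit.

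The genes around the module were taken as lists, each by the brightest probe of a gene. Of 16 MAP kinase kinase kinases upstream of JNK, 2 rose and 9 fell, none by 2-fold, with a median of -0.40. Of 7 MAP4K kinases, 1 rose and 4 fell (median -0.38). The rises in these lists were mostly lost when a replicate was left out, as no MAP4K and no MAP kinase kinase kinase rose in 8 of the 10 such fits each, while 7 to 10 of the latter and 2 to 4 of the MAP4K kinases fell. Among 14 other MAP2K and MAPK genes, 6 rose and 3 fell (median 0.16), with Mapk13 (p38 delta) up by 2.19 (SE 0.19, limma adjusted p = 2.51e-05), Mapk6 (ERK3) up by 2.02 (SE 0.33, adjusted p = 0.000849) and Mapk12 (p38 gamma) lower (-1.44, SE 0.14, adjusted p = 4.16e-05). The phosphatases that act on JNK showed 3 of 7 higher and none lower (median 0.57), led by Dusp16 (2.18, SE 0.23, adjusted p = 6.09e-05). With a replicate left out, 3 to 6 phosphatases were higher, and of the other MAP2K and MAPK genes 5 to 7 rose and 1 to 4 fell. With slide as a block, a contrast that rests on a single lung, most calls in each of these lists were lost. Among them were Mapk6 (1.95) and the other 2 phosphatases that rose, Dusp8 (0.60) and Dusp4 (1.02), while Mapk13, Mapk12 and Dusp16 still passed. For all genes on the array by the brightest probe, 25.5% rose and 28.4% fell, with a median of -0.04.

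Of the JNK substrates, 8 of 9 tested genes fell and none rose, with a median of -0.72. Of the 12 genes on this list, Elk1 had no probe paired with it, and Dcx and Itch were not tested. Those past 2-fold were Stmn2, a microtubule regulator of neurons (-2.99, SE 0.34, limma adjusted p = 9.75e-05), Jun, which encodes c-Jun (-1.67, SE 0.09, adjusted p = 1.79e-06), Map1b, a microtubule-associated protein (-1.52, SE 0.46, adjusted p = 0.0215), and Irs1, the insulin receptor substrate (-1.13, SE 0.14, adjusted p = 0.000192). The study itself singled out Jun from these arrays, so its value is not independent evidence of direction, and Stmn2 and Map1b are also neuronal genes. With slide as a block 2 of the 8 passed, Jun and Stmn2, while Map1b (-1.65, adjusted p = 0.204), Irs1 (-0.99, adjusted p = 0.0571), Jund, Bmf, Bcl2l11 and Atf2 did not (the last 4 at adjusted p from 0.0922 to 0.607). Map1b was also lost without WT replicate 5. Among 11 other adaptors and small GTPases 1 rose and 5 fell, with Sh3rf3, a paralog of Sh3rf1, lowest (-1.32, SE 0.20, adjusted p = 0.000539, and -0.93 with slide as a block, adjusted p = 0.0962).

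Kinesin-1 subunits, the motors that JIP scaffolds bind, went both ways. Of 7 subunits 3 rose and 2 fell (median 0.27). The light chain Klc3 rose by 1.43 (SE 0.13, limma adjusted p = 3.38e-05) and the heavy chain Kif5c rose by 1.03 (SE 0.23, adjusted p = 0.00491). Klc3 passed with slide as a block and Kif5c did not (0.79, adjusted p = 0.287). With a replicate left out, 3 to 4 subunits rose and 0 to 2 fell. No list was tested against the other genes, and the counts stand beside the shares given for all genes.

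**Figure D5:**
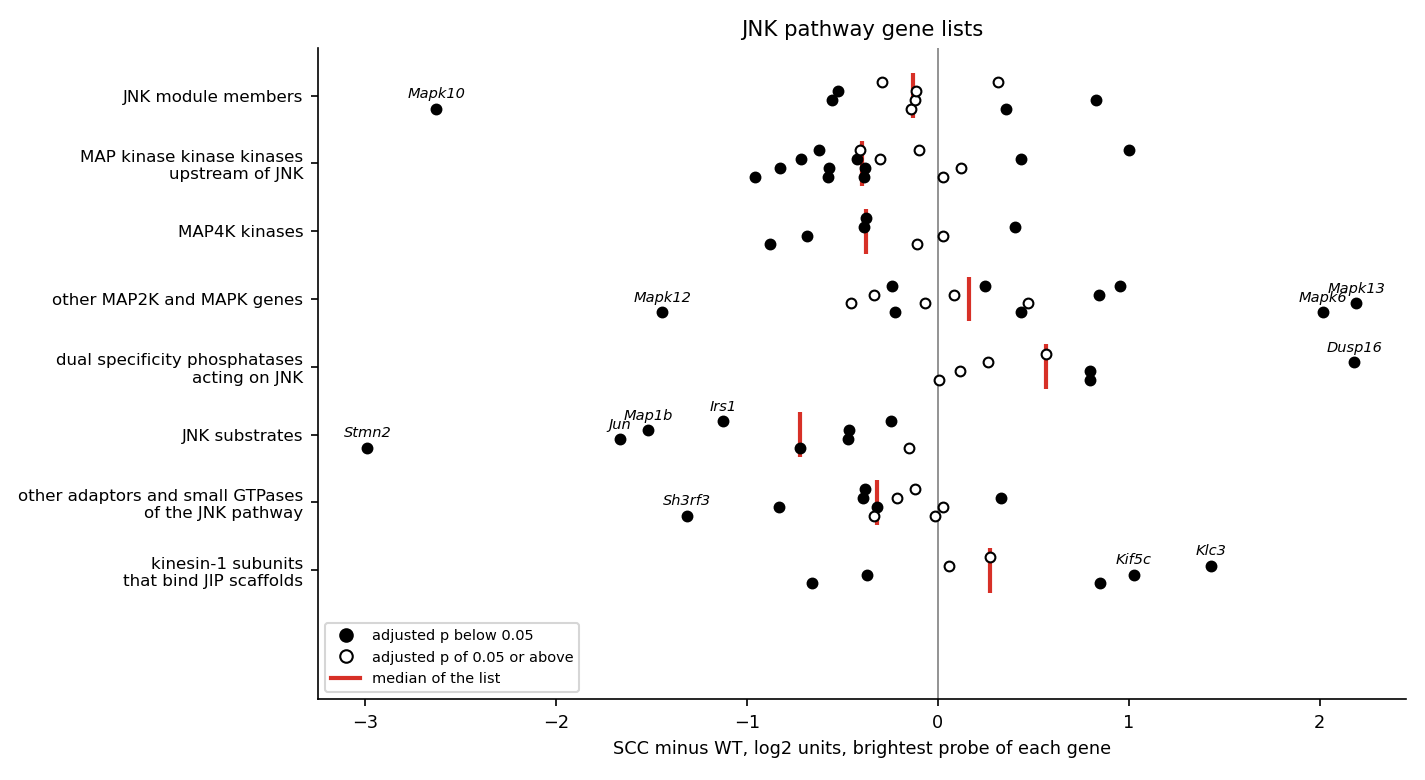
Difference between SCC and WT (x axis, log2 units) of every tested gene of the module and of 7 JNK pathway lists (rows), by its brightest probe; filled points have an adjusted p below 0.05, red bars are list medians, and genes past 2-fold are named. JNK substrates have the lowest median (-0.72) and the JNK phosphatases the highest (0.57).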

How the data were processed

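Cy3-labelled RNA from 5 WT lungs and 5 SCCs was measured on Agilent single-colour whole mouse genome arrays, and the sample titles gave the group and replicate number of each array. The authors read the scans with Agilent Feature Extraction 12, and their deposited scanner output gives a background-subtracted intensity on a linear scale, with flags, at every spot. Quantile normalization and log2 are the steps the methods name. A deposited matrix of log2 values matched the values used here on every array (r of at least 0.9999 across probes) and served as an alternative. The methods' one-way analysis of variance was likewise run as an alternative to limma.

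After removal of control spots and of spots flagged as outliers, the spots of a probe were averaged as log2 values and the arrays quantile-normalized. A probe was well above background on an array if this flag was set for 0.5 or more of its spots, and it was tested if that was so on at least 4 of 5 arrays of a group. No probe was saturated. The 30374 tested probes were fitted in limma 3.58.1 (R 4.3.3; lmFit, eBayes, two-sided, no covariates, all 10 arrays), and p-values were adjusted by Benjamini-Hochberg over the whole set. Every adjusted p of a single probe is from limma. Pairs of probes were compared by their log2 difference on each array with a two-sided exact permutation test (all splits of the arrays, smallest possible p 0.00794), adjusted over the 15 pairs. Figures were drawn with matplotlib 3.10.9.

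RefSeq accessions tied 28223 of the 41174 probes (68.5%) to symbols through a table of assembly GRCm38.p6. The scanner files name another build (mm9) and give no probe coordinates, so none are printed for probes. Each gene was represented by its brightest probe over the 10 arrays, which was the same probe in the deposited matrix for all 10 members. Genes named beyond the members are those of the lists past 2-fold, cell type markers, and the 3 genes most like Map2k7, Mapk8 and Mapk10. The JNK substrates that passed or were not tested and the phosphatases that rose are also named. 1 gene of the marker lists is not reported here and was left out of its list. The members, lists and tests were chosen with earlier results of these data known.

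The fit was tested on simulated data, and the number of arrays limits the precision. Same-numbered WT and SCC arrays did not deviate together (correlations from -0.103 to 0.009).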

Additional observations from a re-analysis of the deposited data

Results flagged for a closer look

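For each probe of the members, for each marker list, for the pathway genes named in the text and for the percentage of bright probes, the gap between the most extreme of the 5 arrays of a group and its nearest neighbour was divided by the range of the group, and gaps above Dixon's critical value of 0.71 were taken. Of 86 such groups 12 exceeded it, 8 of them through SCC replicate 2 and 3 through SCC replicate 5. Chance alone takes about 1 in 20 groups if they are independent. These groups were read on the same arrays and are not, so the count cannot be weighed against that share.

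Through SCC replicate 2, Mapk9 probe 3 had a gap of 0.835 of the range (8.40, the other tumours 7.72 to 7.83) and Sh3rf1 probe 2 had 0.754 (7.71, the others 9.04 to 9.48). The same tumour stood apart in the pathway genes Mapk13 (0.776; 12.82, the others 13.59 to 13.81) and Mapk12 (0.728; 11.67, the others 11.02 to 11.20). In cell type markers it stood apart for squamous cells (0.889; 11.68, the others 14.81 to 15.20), endothelial cells (0.766; 12.12, the others 10.92 to 11.20), neutrophils (0.923; 10.64, the others 12.95 to 13.14) and macrophages (0.871; 13.55, the others 14.41 to 14.53).

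Through SCC replicate 5, Mapk8ip1 had a gap of 0.726 (9.52, the other tumours 7.73 to 8.22) and the untested Mapk10 probe 2 had 0.748 (2.85, the others 2.44 to 2.55). That array also stood apart in its share of probes well above background, with a gap of 0.859 (90.2%, the others 71.1% to 73.8%). Among the lungs, Spag9 probe 1 was high on WT replicate 3 (gap 0.735; 13.49, the others 13.26 to 13.32).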

How the results depend on the processing

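Map2k4 and Mapk8ip3 passed in each of the 10 fits without a replicate and under the 11 other alternatives run. With slide as a fixed block, 3814 probes passed in place of 14878 and 2 of the 10 member genes in place of 5, and Map2k7 was 0.093 (adjusted p = 0.808) and Sh3rf1 probe 1 was 0.027 in place of -0.12 and -0.11. That fit compares 1 lung with 3 tumours within a slide. Leaving out each replicate in turn gave 12625 to 17865 passing probes, 3 to 6 member genes (3 without SCC replicate 3: Map2k4, Mapk8ip3 and Spag9) and a Map2k7 difference of -0.18 to -0.07, which never passed. Array quality weights brought Map2k7 closest to passing (-0.23, adjusted p = 0.0526), and with them its dimmer probe passed (-0.48, adjusted p = 0.046) and so did 7 of the 10 genes, Mapk9 and Mapk8ip1 being added, where 20063 of all 30374 probes passed in place of 14878. Those weights nearly left out SCC replicates 2 and 5 (0.13 and 0.14), and plainly leaving out both gave -0.15 for Map2k7 (adjusted p = 0.242). Normexp gave 6 genes, with Mapk9 added, and 15307 probes. Map2k7 probe 2 was 0.044 with scaling to the 75th percentile, which moved the median of all probes by 0.12 and the share of passing probes that were higher from 45.6% to 51.5%. The dim Mapk8 probe 3, at 0.03, was 0.98 with slide as a fixed block, 0.66 with scaling to the 75th percentile, -0.026 in the deposited matrix and from -0.21 to 0.46 when a replicate was left out, being below 0 without WT replicate 5 (-0.13), SCC replicate 3 (-0.21) or SCC replicate 4 (-0.17). The filter that kept only probes well above background on every array gave no value for Mapk10, Map2k7 probe 2 or Mapk8 probe 3. Of the 15 pairs of probes 8 passed (1 of them Mapk8 against Mapk10, whose values in SCC are mostly below background), 5 with the matrix values (Mapk8 against Mapk9, Mapk8 probes 2 and 3, and the Sh3rf1 probes were lost), and 0 to 10 when a replicate was left out (0 without any WT replicate, and 3 without SCC replicate 1, 3 or 4). A lost pair call need not mean a smaller change, because fewer arrays leave fewer splits and a coarser exact p. With the replicate number as a block, 12374 probes and 4 of the 10 genes passed, Map2k7 was unchanged at -0.12, and Mapk8 probe 1 was lost (adjusted p = 0.0549). The numbers do not pair the samples, as 0 SCC arrays were best matched by the lung of their own number. The fit without SCC replicates 2 and 5 was added after the data were seen. Unless stated here or beside the result, the cause of a change was not tested.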
